A study of Mus musculus with 15 samples.

Results

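The lysosome and autophagy genes examined here were 36 genes that encode lysosomal hydrolases, lysosomal membrane proteins, subunits of the lysosomal proton pump, carriers of autophagy, and the transcription factors Tfeb and Tfe3. They were found by matching the Ensembl IDs of the deposited read counts to the 36 gene symbols, and each symbol matched 1 of the 25292 genes counted. All 36 passed the filter on low counts that left 16245 genes for testing.

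RNA sequencing covered 15 libraries of C57/Bl6J embryonic mouse pancreas in 5 groups of 3. Pancreata labelled wild type (wt) or S1pr2 null came fresh from embryos at 14.5 days post coitum (dpc), the null allele being S1pr2 tm1Rlp, a disruption present in every cell of the embryo. Wild-type dorsal explants of the same stage were kept for 2 days as air–liquid interface cultures in serum-free medium, either as they were (control), with 15 µM JTE013 (JTE), an antagonist of the sphingosine-1-phosphate receptor S1pr2, or with 15 µM JTE013 and 50 ng/ml connective tissue growth factor (JTE + CTGF), a secreted matrix-associated protein. By the methods of the study up to 3 organs or explants of 1 genotype or treatment were pooled for each library, and the 3 libraries of a group are independent samples.

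The libraries held 11402804 to 13828737 counted reads. Reads of S1pr2 went against the genotype label: the normalised read counts were 772, 762 and 762 in wt and 1458, 1263 and 1354 in the libraries labelled S1pr2 null, a log2 difference of 0.83 ± 0.07 (SE, edgeR quasi-likelihood test, adjusted p = 4.50e-07), so results for those libraries rest on the label. The allele is an inserted cassette, and reads summed over the whole gene do not test for it. The third JTE library stood apart within its group: over genes its chi-square per gene was 17.2 against the first and 23.2 against the second, compared with 2.34 to 10.2 for all other pairs of replicates. Counts of genes called with JTE are therefore also given without it. Defining pancreas genes such as Ins2 were read in every group.

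Lysosomes are acidic organelles that break down proteins, glycans, lipids and worn-out cell parts delivered by endocytosis and autophagy. A proton pump in their membrane, the V-ATPase, acidifies the lumen so that the hydrolases work, and autophagy receptors load cargo into vesicles that fuse with lysosomes. Tfeb and Tfe3 are related basic helix-loop-helix factors that enter the nucleus when lysosomes are stressed or nutrients are short, and they bind a motif with the core CACGTG near the start of many lysosomal genes. Their activity is set largely by phosphorylation and location in the cell, which read counts do not measure. Macrophages carry large amounts of lysosomal hydrolases, so the number of macrophages in a sample bears on these genes. In bulk RNA, fewer cells of a type and less RNA per cell cannot be told apart.

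The promoters of the 36 genes were read for that core. RefSeq sequences of GRCm38.p6, from 250 bases before to 50 bases after the gene start, were at hand for 31 of the 36 genes, those of Asah1, Atp6v1h, Ctsb, Ctsh and Npc1 being without an entry. CACGTG, which reads the same on both strands, stood in the window of 11 of the 31 genes (35.48%), compared with 8.093% of the 27025 genes with a window. The longer TCACGTGA, also the same on both strands and counted within the former, stood in 6 of the 31 (19.35%), compared with 1.125% of all genes. The list was built around the network of Tfeb, which binds this core, so a higher share was expected from its making. These shares describe the list and are no test of it. The stretches below are those of the 6 genes with the longer motif and of Lamp1, whose window held 4 copies of the core, each written 5′ to 3′ on the strand of the gene with the motif in capitals.
Mcoln1: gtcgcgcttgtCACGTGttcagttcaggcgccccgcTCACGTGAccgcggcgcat
Ctsa: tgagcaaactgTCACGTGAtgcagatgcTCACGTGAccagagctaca
Gla: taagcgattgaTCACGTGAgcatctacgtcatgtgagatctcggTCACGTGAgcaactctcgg
Atp6v0d1: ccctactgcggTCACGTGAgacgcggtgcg
Atp6v1a: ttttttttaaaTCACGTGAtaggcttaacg
Ctsd: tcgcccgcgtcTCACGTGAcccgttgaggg
Lamp1: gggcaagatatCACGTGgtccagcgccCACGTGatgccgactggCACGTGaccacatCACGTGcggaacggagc

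In GRCm38.p6 these stretches lie at chr8:3500437-3500491 on the plus strand for Mcoln1, a lysosomal calcium channel, and chr2:164833749-164833795 on the plus strand for Ctsa, a carboxypeptidase that also protects other hydrolases. The stretch of Gla, an alpha-galactosidase, lies at chrX:134601182-134601244 on the minus strand, and that of Lamp1, an abundant lysosomal membrane glycoprotein, at chr8:13159089-13159162 on the plus strand. The stretches of the pump subunits Atp6v0d1 and Atp6v1a lie at chr8:105566050-105566079 and chr16:44139373-44139402, and that of Ctsd, the aspartic protease cathepsin D, at chr7:142387908-142387937, all 3 on the minus strand. By the RefSeq gene start all are upstream, except that the stretches of Ctsa, Atp6v0d1 and Lamp1 run across it. These end 23, 15 and 2 bases into the transcript. The gene bounds used for counting differ. By those the stretches of Ctsa, Atp6v1a and Ctsd lie inside the gene, that of Atp6v0d1 lies upstream, and that of Mcoln1 runs across the start. A match describes the sequence and does not show that a factor was bound there.

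The 36 genes ranged widely in level, and most lay above the median of all genes tested. On the TPM scale, which divides reads by transcript length and by depth, the median of their group means was 75.7 in wt, 69.3 in S1pr2 null, 72.3 in control, 96.3 in JTE and 94.2 in JTE + CTGF, while the median over all genes tested lay between 13.7 and 20.6 TPM. Below that median were 5 of the 36 genes in wt and in S1pr2 null (Ctsh, Gla, Npc1, Tfe3 and Tfeb), 3 in control (Gla, Npc1 and Tfeb), 3 in JTE (Ctsh, Gla and Tfeb) and 2 in JTE + CTGF (Gla and Tfeb). Tfeb had the lowest TPM of the 36 genes in each group, from 4.06 in S1pr2 null to 7.33 in JTE + CTGF. The highest was that of Cd63, a tetraspanin of late endosomes, in wt (558 TPM) and control (805 TPM), and that of Psap, the precursor of the saposins that help hydrolases reach lipids, in S1pr2 null (562 TPM), JTE (979 TPM) and JTE + CTGF (939 TPM). Summed over the 36 genes, the level was 4071 to 4145 CPM in the wt libraries and 3839 to 3874 in those labelled S1pr2 null. CPM here are reads scaled to depth with TMM factors, not to length. The sum was 6839 to 6953 CPM in control, 8107 to 9322 in JTE and 9460.1 to 9627 in JTE + CTGF explants. No libraries of these 5 groups overlapped in this TMM-scaled sum. As a plain share of all counted reads, however, JTE library 3 stood at 0.925%, above the 0.884% to 0.906% of the JTE + CTGF libraries. On that scale JTE and JTE + CTGF overlapped.

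**Figure D1:**
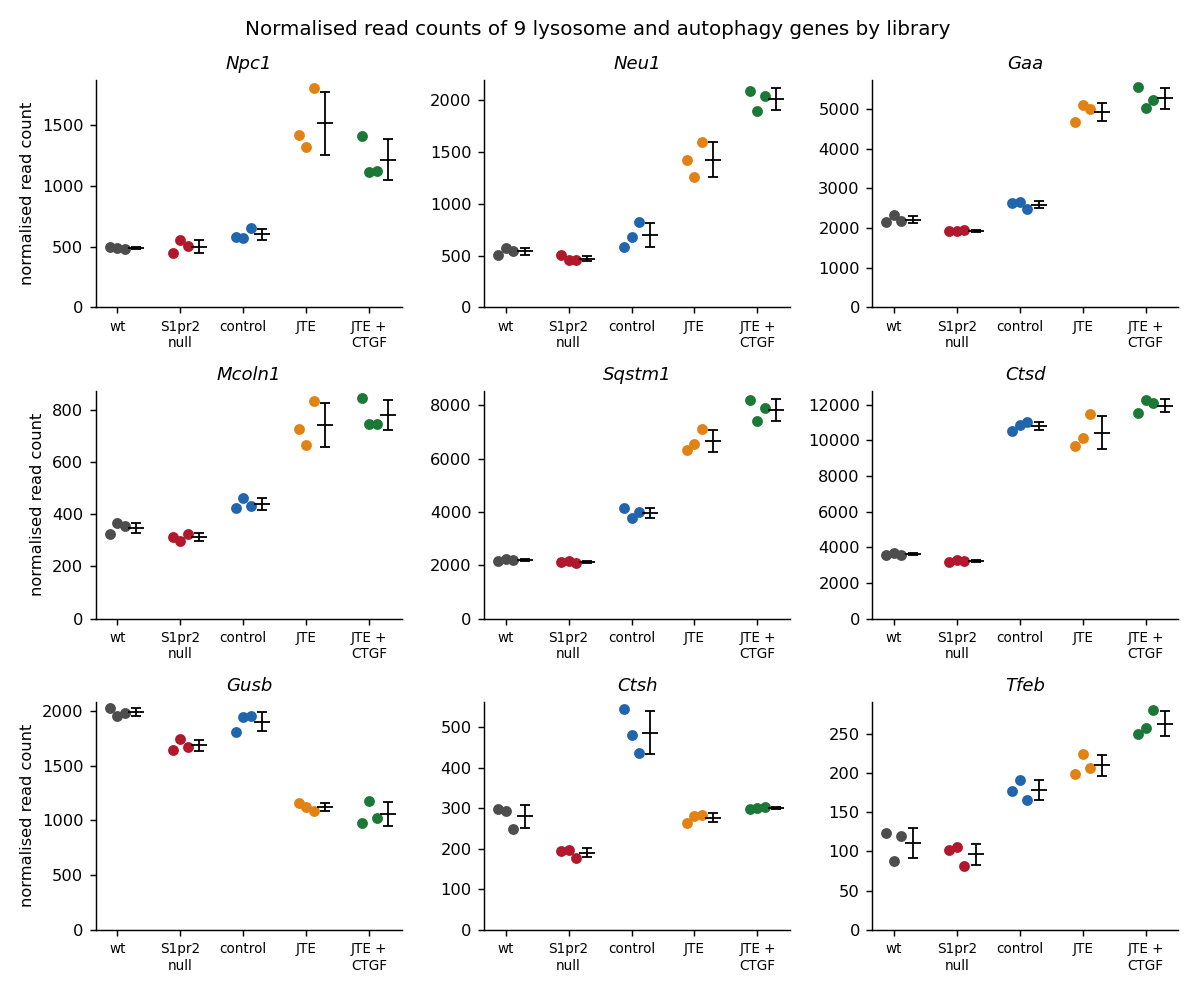
Normalised read counts (vertical axes, from 0) of 9 of the 36 genes in each of the 15 libraries, by group; points are libraries, and the horizontal line with bars gives the group mean ± SD (n = 3). Npc1, Neu1, Gaa, Mcoln1 and Sqstm1 were higher in every JTE and JTE + CTGF library than in every control library, Gusb and Ctsh were lower, and the JTE libraries of Ctsd lay on both sides of the control libraries.

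The first comparison asked what changed in these genes between fresh wt pancreata and wt explants after culture. Of the 36 genes 31 were higher in control explants (86.1% of them, compared with 28.5% of all genes tested), 1 was lower (2.78%, compared with 29.3%) and 4 were not called. A gene was called at an adjusted p below 0.05 in the edgeR quasi-likelihood test, with adjustment over all 16245 genes. The median log2 fold change was 0.56 over the 36 genes and −0.02 over all genes. The criterion of the study, which asks for an adjusted p of at most 0.1, more than 100 normalised reads in either group and a fold change above 1.6 or below 0.6 in a protein-coding gene, was met by 13 higher genes (background 7.99% of genes tested) and 0 lower genes (background 4.14%). Time, culture and the excised bud against the fresh organ cannot be told apart here.

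The proteases included the 3 largest rises in culture. All 8 of them were called higher, with log2 fold changes of 0.43 to 1.58. Ctsd had 3570.2, 3687 and 3593 normalised reads in the wt libraries and 10551, 10864 and 11023 in the control explants, a rise of 1.58 ± 0.06 (log2 ± SE, adjusted p = 7.27e-13), which is 2.99-fold. The groups lay far apart, the lowest control library being well above the highest wt library.

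Ctsb, the cysteine protease cathepsin B, had 3859, 3935 and 3969.6 normalised reads in wt and 9014, 9061 and 8990.3 in control, a rise of 1.20 ± 0.07. Ctsl, the cysteine protease cathepsin L, had 2473, 2762 and 2632 in wt and 5679, 5152 and 5762 in control, a rise of 1.08 ± 0.07. In both genes the groups were clear of each other. The remaining proteases rose by log2 values of 0.94 (Ctsc, a dipeptidyl peptidase that activates other proteases), 0.80 (Ctsh, an aminopeptidase), 0.76 (Ctsa), 0.44 (Tpp1, a tripeptidyl peptidase) and 0.43 (Ctsz, a carboxypeptidase).

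All 5 membrane proteins were higher in culture, from Mcoln1 (0.34 ± 0.09) through Lamp2 (0.56 ± 0.08), the membrane glycoprotein of chaperone-mediated autophagy, Lamp1 (0.64 ± 0.05) and Scarb2 (0.65 ± 0.07), the carrier of glucocerebrosidase, to Cd63 (0.88 ± 0.06). Of the 8 genes of lipid handling 6 were higher, led by Lipa (0.77 ± 0.09), the acid lipase that frees cholesterol and fatty acids, Npc2 (0.68 ± 0.05), the soluble cholesterol carrier, and Psap (0.67 ± 0.06). The others of lipid handling were Asah1, the acid ceramidase that releases sphingosine (0.45 ± 0.06), Npc1, the membrane cholesterol exporter (0.29 ± 0.12), and Ppt1, a thioesterase that removes fatty acids from proteins (0.27 ± 0.05). Smpd1, the acid sphingomyelinase (0.09 ± 0.07), and Galc, the galactocerebrosidase (0.10 ± 0.08), were not called. The call of Npc1 was weak: its adjusted p rose above the threshold, up to 0.146, on leaving out any wt library, S1pr2 null library 3, or control library 1 or 3.

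Of the 7 glycosidases and sulfatases 5 were higher in culture: Hexa, a subunit of beta-hexosaminidase (0.74 ± 0.08), Arsa, arylsulfatase A (0.57 ± 0.08), Gla (0.45 ± 0.12), Neu1, the lysosomal sialidase (0.37 ± 0.11), and Gaa, the acid glucosidase that breaks down glycogen (0.23 ± 0.05). The call of Neu1 was lost without control library 3 (adjusted p = 0.0507). Glb1, the lysosomal beta-galactosidase, was the 1 gene that fell, with 885, 959.7 and 876 normalised reads in wt and 769, 795 and 687 in control (−0.27 ± 0.07, adjusted p = 0.00405 in edgeR), and every control library lay below every wt library. Gusb, the beta-glucuronidase often used as a reference gene, was not called (−0.06 ± 0.06). Of the pump subunits, Atp6v0d1 (0.43 ± 0.05) and Atp6v1a (0.29 ± 0.06) were higher and Atp6v1h was not called (0.13 ± 0.06).

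The autophagy genes and both factors were higher in culture. Sqstm1 encodes p62, a receptor that carries ubiquitin-tagged cargo into autophagosomes, and had 2145, 2226 and 2195 normalised reads in wt and 4136, 3752 and 4000.0 in control (0.86 ± 0.06, adjusted p = 1.31e-09 in edgeR). Gabarapl1, an Atg8 relative that coats autophagosomes, had 820.1, 744 and 778 in wt and 1543, 1392 and 1439 in control (0.90 ± 0.06). Map1lc3b, the Atg8 relative LC3B, had 712, 666 and 713 in wt and 1066, 1018 and 981 in control (0.55 ± 0.07). In none of the 3 did the groups overlap.

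Tfeb was read at 123, 88.1 and 120.1 normalised reads in wt and 177, 191 and 166 in control, a rise of 0.69 ± 0.13 (adjusted p = 2.24e-04 in edgeR). Tfe3 was more abundant, with 584, 655 and 654 in wt and 918, 1049.6 and 1029.9 in control (0.66 ± 0.07, adjusted p = 4.92e-07). The lowest control library exceeded the highest wt library for both factors.

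Macrophage markers rose with them in culture. Of 18 markers 14 were called higher and 1 lower (Mrc1), with a median log2 fold change of 1.20, and their summed level was 297 to 313 CPM in wt and 702 to 738 CPM in control. None of the 18 was at 0 in any of the 15 libraries. The largest rises were in Cd14 (4.26), Lyz2 (2.98) and Ms4a7 (2.71), whereas Csf1r, the receptor that macrophages depend on, stood at 0.23 ± 0.12 and was not called. The summed level of 6 erythroid genes, by contrast, was 1119 to 1326 CPM in wt and 13.6 to 35.2 CPM in control. Epithelial markers went from 1806 to 1966 CPM in wt to 2532 to 2871 CPM in control (3 of 5 called higher, 0 lower), and pancreas markers from 3667 to 4710 CPM to 8951 to 11657 CPM (3 of 8 higher, 2 lower). Of the endothelial markers 3 of 5 were lower and 1 higher, and of the mesenchymal markers 3 of 5 were higher and 1 lower. With the macrophage level as a covariate, 9 of the 36 genes were called higher and 0 lower in edgeR (17 and 1 at an unadjusted p below 0.05), but 99.7% of that covariate's variance lay between the groups, so it and culture cannot be told apart. The part of the other cell types was not tested.

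The second comparison asked how JTE, the S1pr2 antagonist, changed these genes in culture. Of the 36 genes 23 were higher in JTE explants than in control explants (63.9%, compared with 25.9% of all genes tested), 4 were lower (11.1%, compared with 26.2%) and 9 were not called. The median log2 fold change was 0.37 over the 36 genes and 0 over all genes. Without the third JTE library 22 were higher and 4 lower, with a median of 0.34. These were not all the same genes: Cd63 and Map1lc3b lost their calls, and Ctsd was called lower. By the criterion of the study there were 5 higher genes (background 3.08% of genes tested) and 2 lower genes (background 5.18%). The 5 were Npc1, Neu1, Gaa, Mcoln1 and Sqstm1, and the 2 were Ctsh and Gusb.

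Npc1 rose most. Its normalised read counts were 583, 570.0 and 649.8 in control and 1416, 1318 and 1803 in JTE explants, a rise of 1.33 ± 0.11 on the log2 scale (adjusted p = 6.03e-08 in edgeR), or 2.52-fold. Every JTE library lay far above every control library, and the third JTE library was the highest.

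Neu1 had 587, 685 and 825 normalised reads in control and 1426, 1255 and 1592 in JTE explants, a rise of 1.03 ± 0.10 (adjusted p = 3.12e-07, edgeR). Gaa, with a much smaller spread, had 2629.8, 2647 and 2486 in control and 4660.4, 5091 and 4989 in JTE, a rise of 0.93 ± 0.05 (adjusted p = 5.41e-10). For both enzymes every JTE library lay above every control library. These 3 genes act on different substrates, Npc1 on cholesterol, Neu1 on sialylated glycans and Gaa on glycogen.

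Genes of lipid handling were the group with the highest median, 0.57, and 6 of the 8 were higher. Beside Npc1 these were Galc (0.63 ± 0.07), Smpd1 (0.62 ± 0.06), Asah1 (0.62 ± 0.06), Psap (0.52 ± 0.06) and Npc2 (0.38 ± 0.05). Asah1 and Smpd1 act in sequence on sphingolipids, Smpd1 freeing ceramide from sphingomyelin and Asah1 freeing from ceramide the sphingosine that sphingosine kinases turn into sphingosine-1-phosphate. Asah1 had 1233 to 1378 normalised reads in control and 1937 to 2026 in JTE explants, and Smpd1 459 to 499 and 684 to 762. Lipa (0.20 ± 0.09) and Ppt1 (−0.08 ± 0.05) were not called.

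Of the glycosidases and sulfatases, Arsa (0.49 ± 0.07), Hexa (0.49 ± 0.08) and Glb1 (0.30 ± 0.07) were also higher with JTE, and Gla was not called (−0.17 ± 0.11). Glb1 had 687 to 795 normalised reads in control and 885 to 944 in JTE explants, and so was higher with JTE although it had been lower after culture. Gusb fell, from 1805, 1949 and 1956 in control to 1161, 1119 and 1086 in JTE explants, a difference of −0.76 ± 0.06 (adjusted p = 3.36e-08 in edgeR). The highest JTE library of Gusb lay far below the lowest control library.

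The proteases were split. Tpp1 (0.51 ± 0.07), Ctsl (0.47 ± 0.07), Ctsc (0.37 ± 0.07) and Ctsa (0.25 ± 0.05) were higher, Ctsd (−0.05 ± 0.05, 95% interval −0.17 to 0.06) and Ctsb (0.00360 ± 0.07, 95% interval −0.14 to 0.14) were not called, and Ctsh and Ctsz were lower. Ctsh had 544, 479.6 and 436 normalised reads in control and 263, 281 and 284 in JTE explants, a fall to 0.568 of the control level (log2 −0.82 ± 0.09, adjusted p = 8.43e-07 in edgeR). Ctsz had 2691, 2501 and 2381 in control and 2059.9, 2206 and 2293 in JTE (−0.21 ± 0.06, adjusted p = 0.0113). The groups were separate in both genes, but the call of Ctsz was lost without control library 1 or JTE library 1 (adjusted p up to 0.0651). Ctsd had 9688, 10143 and 11460.0 normalised reads in JTE explants, so libraries 1 and 2 lay below every control library and library 3 above them. It was called lower without JTE library 3, at −0.13 (adjusted p = 0.0461 in edgeR).

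Of the membrane proteins, Mcoln1 (0.76 ± 0.08), Lamp2 (0.65 ± 0.08), Scarb2 (0.41 ± 0.07) and Cd63 (0.14 ± 0.05) were higher, and Lamp1 was not called (0.11 ± 0.05). Mcoln1 had 423, 463 and 432 normalised reads in control and 727, 667 and 834 in JTE explants, with no overlap. The call of Cd63 was lost on leaving out control library 2 or 3 or JTE library 2 or 3, with an adjusted p of up to 0.170. Of the pump, Atp6v1a (0.50 ± 0.05) and Atp6v1h (0.37 ± 0.06), both of the cytosolic V1 sector that splits ATP, were higher, and Atp6v0d1 of the membrane sector was not called (0.10 ± 0.05).

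The 3 autophagy genes did not move together with JTE. Sqstm1 went from 4136, 3752 and 4000.0 normalised reads in control to 6326, 6547 and 7105 in JTE explants (0.75 ± 0.05, adjusted p = 1.05e-08 in edgeR), and Gabarapl1 from 1543, 1392 and 1439 to 1684, 1754 and 1864 (0.28 ± 0.06, adjusted p = 7.76e-04). Map1lc3b was lower, with 1066, 1018 and 981 in control and 911, 942 and 866 in JTE (−0.17 ± 0.07, adjusted p = 0.0415), and its groups did not overlap. That call was lost without any of 6 libraries, control 1 or 2, JTE 1 or 3, wt 3 or S1pr2 null 3, with an adjusted p of up to 0.139.

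Neither factor was called. Tfeb had 177, 191 and 166 normalised reads in control and 199, 225 and 206 in JTE explants, and although each JTE library lay above each control library the difference of 0.24 ± 0.12 had a 95% interval of −0.02 to 0.50 and an adjusted p of 0.111 in edgeR. Tfe3 had 918, 1049.6 and 1029.9 in control and 1035, 1036 and 1099 in JTE (0.08 ± 0.07, adjusted p = 0.341), with overlapping groups. The 31 genes with a promoter window were also split by the core CACGTG. All 31 belong to a list built around the network of Tfeb, so the split is no test of either factor. The median log2 fold change with JTE was 0.30 over the 11 genes with the core (7 called higher, 0 lower). It was 0.37 over the 20 without the core (13 higher, 3 lower). The 5 genes without an entry are not in these counts, and they include the largest rise, Npc1 (1.33), and the largest fall, Ctsh (−0.82). For the longer TCACGTGA the medians were 0.17 over 6 genes with it and 0.38 over 25 without it. Without JTE library 3 the medians were 0.33 with the core and 0.34 without it, and 0.14 and 0.34 for the longer motif. Of the stretches printed above, that of Mcoln1 belonged to a gene that rose by 0.76 and that of Gla to one at −0.17, which was not called.

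**Figure D2:**
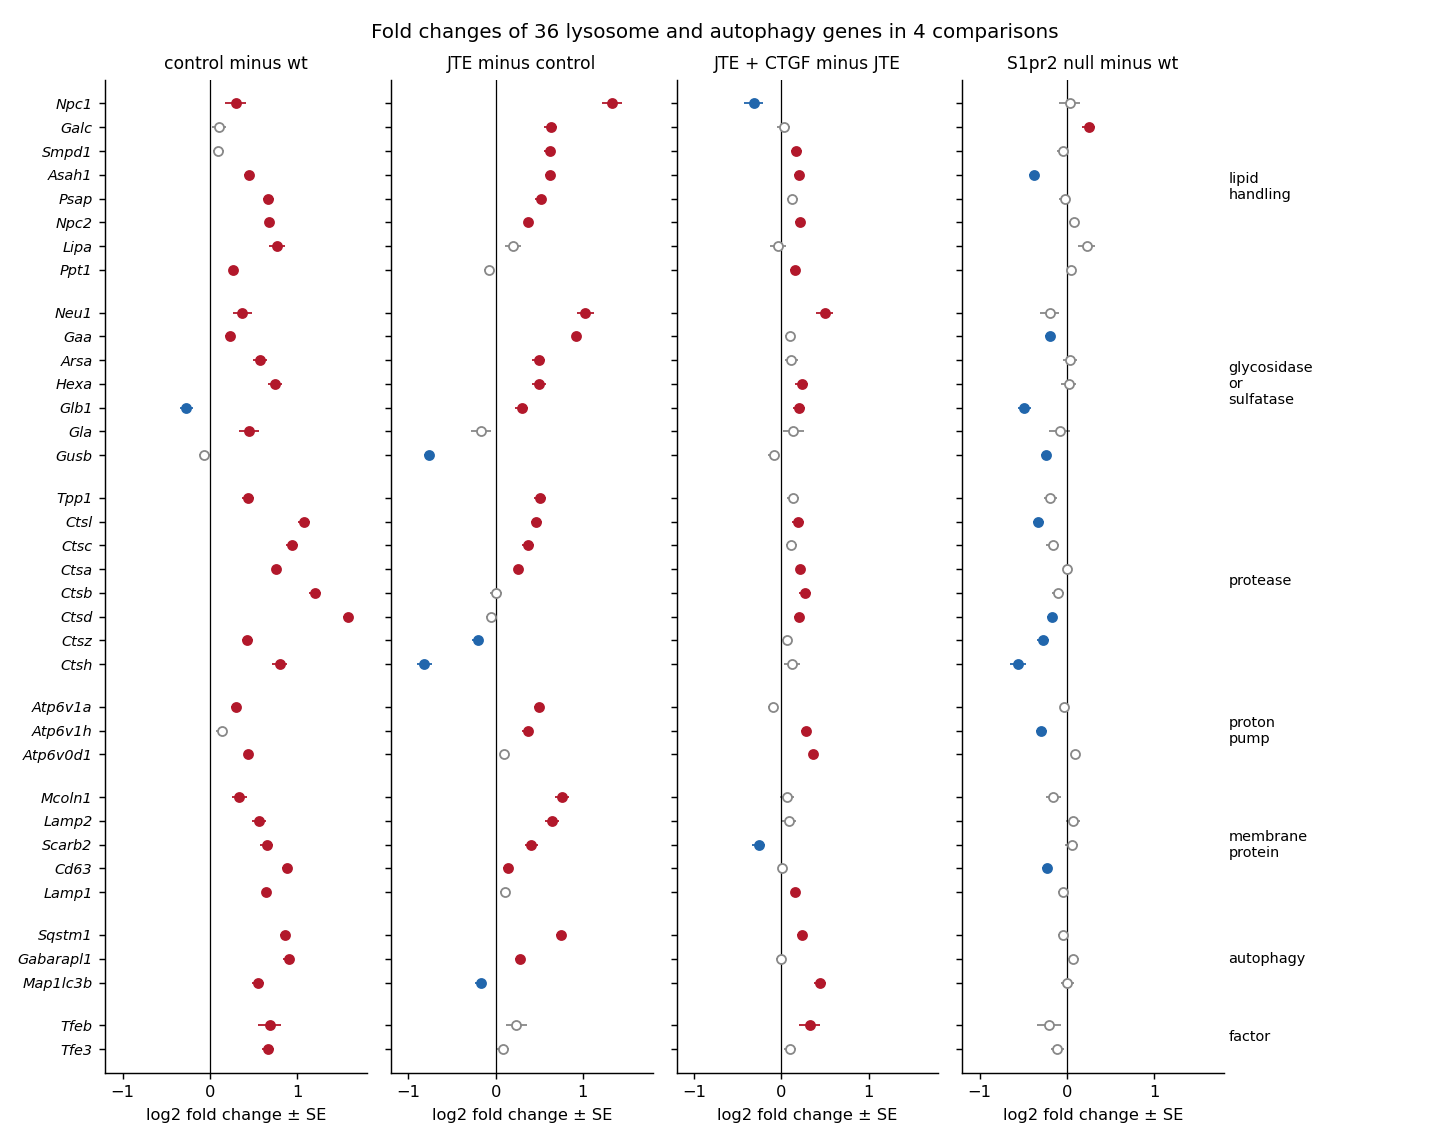
Log2 fold change ± SE (horizontal axes) of the 36 genes, 1 row per gene and grouped by role, in 4 comparisons; filled red points were called higher, filled blue points lower and open points not called (edgeR, adjusted p below 0.05). The first panel has 31 red points and the second 23, while the panel of S1pr2 null minus wt has 1 red and 10 blue points.

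Macrophage markers moved against the lysosome and autophagy genes with JTE. All but 1 of the 18 markers were called lower (17, the exception being Ms4a7), with a median log2 fold change of −1.64, and their summed level went from 702 to 738 CPM in control to 243 to 306 CPM in JTE explants. Over the same libraries the summed level of the 36 genes went from 6839 to 6953 CPM up to 8107 to 9322 CPM. The largest falls were in Cx3cr1 (−3.76) and Csf1r (−3.14), and none of the 18 markers was at 0. Of the other lists, 4 of 5 epithelial and 4 of 5 endothelial markers were lower, while 1 of 5 mesenchymal markers was higher and 1 lower, and 1 of 8 pancreas markers was higher and 5 lower. Without JTE library 3 again 17 macrophage, 4 epithelial and 4 endothelial markers were lower, and pancreas markers had 3 higher and 4 lower. With the macrophage level as a covariate, 0 of the 36 genes were called higher and 0 lower in edgeR (18 and 1 at an unadjusted p below 0.05, median 0.51). Since 98.0% of that covariate's variance lay between the groups, macrophage level and JTE cannot be told apart in these libraries, and the part of the other cell types was not tested.

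**Figure D3:**
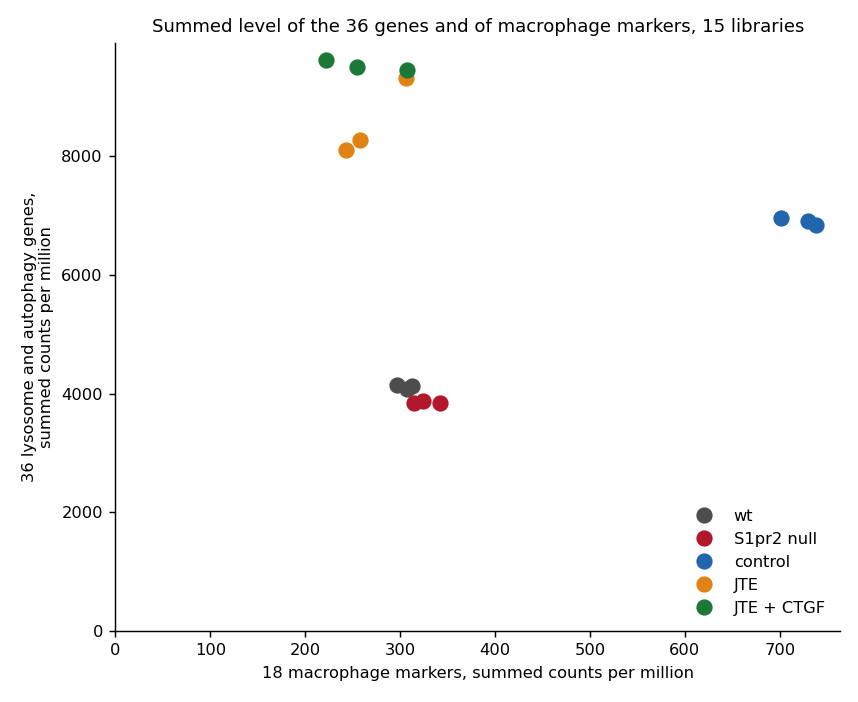
Summed level of the 36 lysosome and autophagy genes (vertical axis, CPM) against the summed level of 18 macrophage markers (horizontal axis, CPM), 1 point per library, coloured by group. The control explants sit alone at 702 to 738 CPM of macrophage markers, while the JTE and JTE + CTGF explants, which have the highest sums of the 36 genes, sit at 221 to 308 CPM, near the fresh pancreata.

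The share of transcript sequence held in common with other genes differed among these genes. No 50-base word of the reference transcripts of Neu1 or Gaa is shared with another gene, and for Npc1 the share is 4.39%. For Ctsd 32.4% of words are shared, for Ctsl 26.3% and for Gabarapl1 23.1%, and for Cd63 and Hexa 11.1% and 10.6%. In 4 further genes the shared words, again over 10%, go with exon bases that overlap a gene on the opposite strand: Arsa (15.8% of words, 18.8% of exon bases), Sqstm1 (15.5% and 17.3%), Ctsb (12.1% and 16.2%) and Ctsa (11.6% and 17.4%). Of the exon bases used for counting, Ctsd shared 6.47% with a gene on the same strand, while Ctsl, Gabarapl1, Cd63 and Hexa shared 0%. The counting kept uniquely aligned reads and its use of strand was not stated. Whether shared words come from the same place in the genome was not examined, so how far the levels of these 9 genes are affected is uncertain.

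JTE + CTGF explants were compared with the same control libraries, so this result is not independent of the one for JTE. Here 29 of the 36 genes were higher (80.6%, compared with 28.1% of all genes tested), 2 were lower (5.56%, compared with 33.0%) and 5 were not called. The median was 0.49 over the 36 genes and −0.03 over all genes. By the criterion of the study 9 genes were higher (background 4.39%) and 1, Gusb, was lower (background 7.39%). The 9 were Neu1, Gaa, Npc1, Sqstm1, Mcoln1, Asah1, Smpd1, Lamp2 and Hexa.

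The same 3 enzymes and carriers led. Neu1 reached 2094, 1896 and 2044 normalised reads, 1.52 ± 0.10 above control and 2.88-fold. Gaa reached 5551, 5015 and 5227 (1.02 ± 0.05) and Npc1 1412, 1116 and 1118 (1.02 ± 0.11). All 3 were clear of the control libraries.

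The 2 genes that fell were Gusb, with 975, 1178 and 1021 normalised reads (−0.85 ± 0.06, adjusted p = 7.24e-09 in edgeR), and Ctsh, with 298, 301 and 302 (−0.69 ± 0.09, adjusted p = 3.29e-06). Both stayed below every control library. Ctsz was not called (−0.15 ± 0.06), nor were Gla (−0.03 ± 0.12), Ppt1 (0.08 ± 0.05), Scarb2 (0.15 ± 0.07) and Lipa (0.16 ± 0.09).

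Sqstm1 had 8184, 7390.2 and 7904 normalised reads with JTE + CTGF, 1.98 times the control level (0.98 ± 0.05, adjusted p = 3.19e-10 in edgeR). Gabarapl1 had 1881, 1728 and 1694 (0.28 ± 0.06) and Map1lc3b 1168, 1159 and 1374 (0.27 ± 0.07). Both factors were called higher than in control, Tfeb at 250.4, 258 and 281 (0.56 ± 0.12, adjusted p = 6.92e-04) and Tfe3 at 1206, 1019 and 1167 (0.18 ± 0.07, adjusted p = 0.0335). Tfeb was clear of the control libraries, whereas 1 JTE + CTGF library of Tfe3 lay within their range, and the call of Tfe3 was lost without control library 1 or JTE + CTGF library 1 or 3 (adjusted p up to 0.163). The calls of Cd63 (0.15 ± 0.05) and Ctsd (0.15 ± 0.05) were lost in the same way, without control library 2 or 3 or JTE + CTGF library 3 for Cd63 (adjusted p up to 0.1002) and without control library 1 or 2 or JTE + CTGF library 2 or 3 for Ctsd (adjusted p up to 0.0927).

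All 18 macrophage markers were called lower with JTE + CTGF, with a median of −1.78 and a summed level of 221 to 308 CPM. The lowest marker, Cx3cr1, was read at 4.74 to 9.16 normalised reads, compared with 366 to 473 in control. The summed erythroid level was 106 to 179 CPM, compared with 13.6 to 35.2 CPM in control. Of the other lists, 4 of 5 epithelial, 4 of 5 endothelial and 4 of 8 pancreas markers were lower, with 0, 1 and 2 higher. With the macrophage level as a covariate, 1 gene was called higher and 0 lower in edgeR (22 and 0 at an unadjusted p below 0.05), with 96.6% of its variance lying between the groups. The part of the other cell types was not tested.

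The third comparison asked what CTGF added to JTE. It was measured against the JTE libraries, including the third, which stood apart. Of the 36 genes 17 were higher with CTGF (47.2%, compared with 13.6% of all genes tested), 2 were lower (5.56%, compared with 16.8%) and 17 were not called. The median was 0.14 over the 36 genes and −0.0022 over all genes, and by the criterion of the study 0 of the 36 were higher and 0 lower (backgrounds 0.443% and 1.30%). Without JTE library 3 there were 18 higher and 0 lower, with a median of 0.24, and without JTE library 1 there were 9 higher. Without JTE library 3 the calls of Npc1, Scarb2, Glb1 and Tfeb were lost and those of Lamp2, Psap and Tpp1 were gained, all 3 higher. When only the 6 libraries compared were fitted, 10 were higher and 1 lower. The steps were small.

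Neu1 rose again, from 1426, 1255 and 1592 normalised reads with JTE to 2094, 1896 and 2044 with JTE + CTGF (0.50 ± 0.10, adjusted p = 8.48e-04 in edgeR). Map1lc3b, which had been lower with JTE, went from 911, 942 and 866 to 1168, 1159 and 1374 (0.44 ± 0.07, adjusted p = 1.17e-04). Atp6v0d1 went from 1175, 1189.5 and 1258 to 1526, 1537 and 1600.2 (0.36 ± 0.05, adjusted p = 2.53e-05). In these 3 genes every library with CTGF exceeded every library with JTE alone, and no single library decided the call.

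Npc1 and Scarb2 were lower with CTGF. Npc1 had 1412, 1116 and 1118 normalised reads, compared with 1416, 1318 and 1803 with JTE alone (−0.32 ± 0.11, adjusted p = 0.0344, edgeR), and the groups overlapped. Its call was lost without JTE library 3 or JTE + CTGF library 2 or 3 (adjusted p up to 0.295). Scarb2 had 1395, 1309.9 and 1157, compared with 1457, 1497 and 1673 (−0.26 ± 0.07, adjusted p = 0.0114), with no overlap, and its call was lost without JTE library 3 or JTE + CTGF library 3 (adjusted p up to 0.0972).

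Of the other genes called, Atp6v1h (0.29 ± 0.06), Ctsb (0.27 ± 0.07), Sqstm1 (0.23 ± 0.05), Ctsa (0.22 ± 0.05), Npc2 (0.21 ± 0.05) and Asah1 (0.20 ± 0.06) kept their calls whichever library was left out. Ctsd, Ctsl, Glb1, Hexa, Lamp1, Ppt1 and Smpd1, with log2 values of 0.16 to 0.23, each lost theirs without JTE library 1, and all but Ctsd without other libraries too. Tfeb was at the edge (0.32 ± 0.12, adjusted p = 0.0481 in edgeR), and 11 of the 15 single-library omissions, all but wt 1 and 2, S1pr2 null 3 and control 3, ended its call with an adjusted p of up to 0.173. Tfe3 was not called (0.10 ± 0.07), nor was Gabarapl1, at 1684, 1754 and 1864 with JTE and 1881, 1728 and 1694 with CTGF (95% interval of the log2 difference −0.12 to 0.12). Of the 18 macrophage markers 0 were higher and 3 lower, and their summed levels overlapped, at 243 to 306 CPM with JTE and 221 to 308 CPM with JTE + CTGF. With the macrophage level as a covariate, 15 of the 36 genes were called higher and 2 lower in edgeR. Here 2.01% of that covariate's variance lay between the groups. Erythroid markers were higher with CTGF in 4 of 6 cases, and their part was not tested.

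The fourth comparison asked how the libraries labelled S1pr2 null differed from wt in fresh pancreata. Of the 36 genes 10 were lower (27.8%, compared with 13.3% of all genes tested), 1 was higher (2.78%, compared with 12.6%) and 25 were not called. The median was −0.07 over the 36 genes and −0.01 over all genes, and by the criterion of the study 0 were higher and 0 lower (backgrounds 1.39% and 1.62%). These differences were small in size, since the deepest reached −0.56 on the log2 scale.

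Ctsh had 297, 294 and 248 normalised reads in wt and 195, 198 and 178 in the libraries labelled S1pr2 null (−0.56 ± 0.09, adjusted p = 3.49e-04 in edgeR). Glb1 had 885, 959.7 and 876 in wt and 730.1, 604 and 609 in null (−0.49 ± 0.07, adjusted p = 1.41e-04). Asah1 had 1011, 920.5 and 924 and 741, 689 and 765 (−0.38 ± 0.06, adjusted p = 2.04e-04). In all 3 the libraries labelled null lay below every wt library.

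The other 7 that were lower were Ctsl (−0.33 ± 0.07), Atp6v1h (−0.29 ± 0.06), Ctsz (−0.27 ± 0.06), Gusb (−0.24 ± 0.06), Cd63 (−0.23 ± 0.06), Gaa (−0.20 ± 0.05) and Ctsd (−0.17 ± 0.06). Of these Ctsd lost its call on leaving out any wt or any S1pr2 null library (adjusted p up to 0.104), and Gaa without wt library 2 (adjusted p = 0.0597). Galc was the 1 gene that was higher, with 367, 330.4 and 342 in wt and 381, 446 and 409 in null (0.25 ± 0.08, adjusted p = 0.0217 in edgeR). Its call was lost without wt library 2 or 3 or S1pr2 null library 2 or 3 (adjusted p up to 0.118).

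The autophagy genes and the factors were not called. Sqstm1 had 2126, 2149 and 2096 normalised reads in the libraries labelled null, compared with 2145, 2226 and 2195 in wt (−0.04 ± 0.06, 95% interval −0.16 to 0.07). Gabarapl1 stood at 798, 862 and 806 (0.07 ± 0.06) and Map1lc3b at 664, 749.8 and 686 (0.01 ± 0.07), both overlapping wt. Tfeb stood at 102, 106 and 80.8 (−0.20 ± 0.14, 95% interval −0.49 to 0.08) and Tfe3 at 577, 571 and 606 (−0.11 ± 0.07, 95% interval −0.26 to 0.04), also overlapping.

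Macrophage markers were close between these groups, with 1 of 18 higher (Mrc1), 1 lower (C1qa) and summed levels of 297 to 313 CPM in wt and 314 to 342 CPM in null. Other lists were not: 4 of 5 epithelial markers and 4 of 8 pancreas markers were lower in null, with summed epithelial levels of 1806 to 1966 CPM in wt and 1331 to 1406 CPM in null. Mesenchymal markers had 2 of 5 higher and 2 lower, and erythroid markers 1 of 6 higher and 3 lower. With the macrophage level as a covariate the counts were again 1 higher and 10 lower, with 56.9% of its variance lying between the groups. The part of the other lists in the 10 lower genes was not tested.

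JTE and the null label were then set side by side, in comparisons that share no library. Of the 10 genes lower in null, 6 were higher with JTE (Asah1, Atp6v1h, Cd63, Ctsl, Gaa and Glb1), 3 were lower with both (Ctsh, Ctsz and Gusb) and 1, Ctsd, was not called with JTE. Over all 2156 genes lower in null 26.4% were higher and 35.7% lower with JTE. The 60.0% of the 10 that were higher with JTE is close to the 63.9% of all 36. The share lower with JTE was 30% of the 10, compared with 11.1% of all 36 and 4% of the 25 not called in null. These shares rest on few genes. Galc was higher in both. Of the 25 genes not called in null, 16 were higher with JTE (64.0%, compared with 25.7% of all genes not called in null), 1 was lower and 8 were not called. Without JTE library 3, 11 genes were lower in null, of which 6 were higher and 4 lower with JTE. The difference between the responses was itself tested, as the JTE response minus the null response: it was positive for 22 of the 36 genes (61.1%, compared with 21.5% of all genes tested), negative for 1 (2.78%, compared with 21.5%) and not called for 13. The sign is that of the difference and not of the size of a response: Glb1 was at 0.30 with JTE and −0.49 in null, and Gusb at −0.76 and −0.24. The counts were again 22 and 1 without JTE library 3. Of all genes tested 42.9% differed in either direction. The largest differences were those of Npc1 (1.30 ± 0.16), Neu1 (1.22 ± 0.15) and Gaa (1.12 ± 0.07), and the 1 negative difference was that of Gusb (−0.52 ± 0.09, adjusted p = 1.23e-04 in edgeR). With the macrophage level as a covariate 0 differences were called in edgeR (17 positive and 0 negative at an unadjusted p below 0.05). Age, culture and the way the receptor was blocked or lost differ between the contrasts and cannot be told apart.

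**Figure D4:**
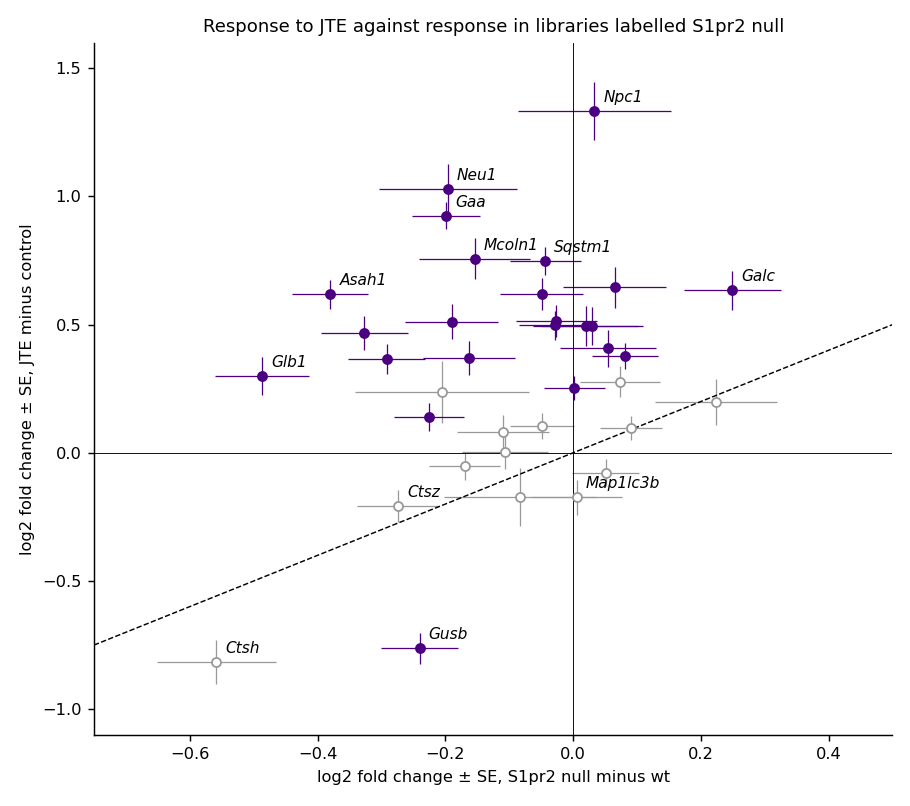
Log2 fold change ± SE of JTE minus control (vertical axis) against S1pr2 null minus wt (horizontal axis) for the 36 genes, 1 point per gene; filled points are the 23 genes whose responses differed in the test of the difference (edgeR, adjusted p below 0.05), and the dashed line marks equal responses. Npc1, Neu1 and Gaa lie furthest above the line, and Gusb is the filled point below it.

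A wider list of 106 other lysosome and autophagy genes was counted in the same fits. With JTE 55 were higher and 13 lower (51.9% and 12.3%, compared with 25.9% and 26.2% of all genes tested, median 0.20), and without JTE library 3 there were 56 and 10. With JTE + CTGF against control 69 were higher and 16 lower (65.1% and 15.1%, compared with 28.1% and 33.0%, median 0.32). With CTGF against JTE the counts were 34 and 9 (32.1% and 8.49%, compared with 13.6% and 16.8%, median 0.09), and without JTE library 3 they were 45 and 4. In culture 70 were higher and 9 lower (66.0% and 8.49%, compared with 28.5% and 29.3%, median 0.28). In the libraries labelled S1pr2 null 6 were higher and 15 lower (5.66% and 14.2%, compared with 12.6% and 13.3%, median −0.05). The share of the whole list that was lower was thus near that of all genes, but the classes differed. Lower were 9 of 27 hydrolases (33.3%, with 2 higher), 2 of 15 membrane proteins and 2 of 13 V-ATPase subunits. So were 1 of 34 autophagy genes and 1 of 17 regulators.

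With JTE, 11 of 15 membrane proteins of the wider list were higher and 0 lower in edgeR (73.3% higher), 8 of 13 V-ATPase subunits were higher and 0 lower (61.5%), and 11 of 17 regulators were higher and 1 lower (64.7%). Of 27 hydrolases 11 were higher and 7 lower (40.7% and 25.9%), and of 34 autophagy genes 14 were higher and 5 lower (41.2% and 14.7%). Over all genes tested 25.9% were higher and 26.2% lower, so the share of these hydrolases that was lower was near that of all genes. The 3 largest rises were those of Idua, the alpha-iduronidase (122, 147 and 139.6 normalised reads in control and 347, 340.0 and 355 with JTE, 1.35 ± 0.11), Rragd, a GTPase that couples lysosomes to mTORC1 (247, 247 and 314 and 602, 692 and 759, 1.34 ± 0.11), and Gpnmb, a glycoprotein of lysosomes and melanosomes (1119, 1441 and 1785 and 2916, 2684 and 4355, 1.20 ± 0.16). In each of them all JTE libraries exceeded all control libraries. Gpnmb had been read at 25.2, 14.4 and 16.0 in fresh wt pancreata.

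The 3 largest falls with JTE were those of Tfec, a relative of Tfeb found mainly in macrophages (14.9, 21.1 and 25.0 and 1.06, 4.08 and 4.65 normalised reads, −2.57 ± 0.49), Ctss, a cathepsin of antigen-presenting cells (498, 528 and 504 and 213, 229 and 297, −1.05 ± 0.15), and Ctsk, a cathepsin known from osteoclasts (276, 298 and 306 and 154, 189 and 193, −0.71 ± 0.11). Tfec was at few reads in every group, which leaves its fold change imprecise. These falls stand beside the fall of 17 of the 18 macrophage markers, and their relation to it was not tested.

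In the libraries labelled S1pr2 null the largest rises of the wider list were those of Rragd (0.91 ± 0.13), Pla2g15, a lysosomal phospholipase (0.45 ± 0.12), and Ctns, the cystine exporter (0.34 ± 0.09). Rragd and Ctns were called higher with JTE too (0.70 ± 0.08 for Ctns). The largest falls were those of Atp6v0c, the ring subunit of the V-ATPase (478, 535 and 483 normalised reads in wt and 125, 123 and 173 in null, −1.82 ± 0.17), Acp5, an acid phosphatase (−0.59 ± 0.13), and Aga, which splits sugar from asparagine (−0.44 ± 0.08). Atp6v0c stood lower still in every group of explants, at 56.3 to 108 in control, so it moved unlike the 2 pump subunits that were higher in culture. It was also the 1 lower gene among the 13 V-ATPase subunits of the wider list in culture, the other 12 being higher. Whether reads of near-identical copies of Atp6v0c were lost was not tested.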

How the data were processed

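RNA was sequenced from 15 poly(A) libraries made with a strand-specific kit, in 5 groups of 3 taken from the sample titles. The authors aligned single-end reads to mm10 with GSNAP, guided by Ensembl splice junctions. They deposited unnormalised read counts for each Ensembl gene, taken over uniquely aligned reads with featureCounts 1.4.6. Use of strand in counting was not given in the sources used here.

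The 36 genes, the marker lists and the wider list were chosen with earlier results of these data known. Symbols came from GENCODE M21 (24750 of 25292 IDs). Testing used edgeR 4.0.16 in R 4.3.3 (quasi-likelihood), with TMM factors, filterByExpr, all 15 libraries in one fit without covariates, and Benjamini-Hochberg adjustment over 16245 genes. The biological coefficient of variation was 7.30%. To normalise, each count was divided by its library's TMM-scaled size over the average of these sizes. TPM used the exon length in the count table.

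Values in every sample were given for Tfeb, Tfe3, Sqstm1, Gabarapl1, Map1lc3b and, in each comparison, the 3 largest rises and 3 largest falls among the genes called, with Mcoln1 added after its values were seen. In the wider list the 3 largest rises and falls with JTE and in S1pr2 null were named. Of other cell types, macrophage, erythroid, endothelial, mesenchymal, epithelial, neutrophil and pancreas markers were counted. With JTE 1 of 4 neutrophil genes tested was lower.

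Alternatives were DESeq2 1.42.0, RLE and upper-quartile factors, no filter, only the libraries compared, a replicate block, each library left out, the criterion of the study and macrophage level as a covariate. The test was tried on simulated counts. Intervals cover the spread between libraries. Python 3.11.15 with pandas 2.3.3 and matplotlib 3.10.9 read the promoters and drew the plots.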

Additional observations from a re-analysis of the deposited data

Results flagged for a closer look

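The responses to JTE in explants and to the null label in fresh pancreata differed for 23 of the 36 genes (63.9%, compared with 42.9% of all genes tested), by the edgeR test of the difference itself over 16245 genes. The values are the JTE response minus the null response on the log2 scale, and each had an adjusted p below the threshold, from 1.02e-08 for Gaa to 0.0116 for Scarb2. Among genes of lipid handling the difference was 1.30 for Npc1, 1.00 for Asah1, 0.67 for Smpd1, 0.54 for Psap, 0.38 for Galc and 0.30 for Npc2. Among glycosidases and sulfatases it was 1.22 for Neu1, 1.12 for Gaa, 0.79 for Glb1, 0.47 for Hexa and 0.46 for Arsa, while Gusb had −0.52, the only negative value of the 23. Among proteases it was 0.79 for Ctsl, 0.70 for Tpp1, 0.53 for Ctsc and 0.25 for Ctsa. Among membrane proteins it was 0.91 for Mcoln1, 0.58 for Lamp2, 0.37 for Cd63 and 0.35 for Scarb2. The pump subunits Atp6v1h and Atp6v1a had 0.66 and 0.53, and the autophagy receptor Sqstm1 had 0.79. None of these 23 calls was lost on leaving out any single library.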

How the results depend on the processing

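With macrophage marker level as a covariate, the counts of higher and lower genes fell to 0 and 0 for JTE (median 0.51), 1 and 0 for JTE + CTGF against control (0.68), 9 and 0 for culture (0.38), and 0 and 0 for the difference between responses (0.57). Between-group differences made up 98.0%, 96.6% and 99.7% of that covariate's variance in the first 3, so it can hardly be told from the groups. In that fit 5 called values changed sign: with JTE Ctsc was −0.043 and Glb1 −0.14, with JTE + CTGF Tfe3 was −0.093, and in culture Gla was −0.30 and Glb1 0.11. The criterion of the study gave 5 higher and 2 lower with JTE, 9 and 1 with JTE + CTGF, 0 and 0 for CTGF against JTE, 13 and 0 in culture and 0 and 0 in null. With only the libraries compared, CTGF against JTE had 10 higher and 1 lower, and null had 2 higher.

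Leaving out single libraries gave 22 to 24 higher and 2 to 4 lower with JTE (median 0.34 to 0.39), 27 to 31 and 2 to 3 with JTE + CTGF (0.48 to 0.54), 30 to 32 and 1 to 1 in culture (0.53 to 0.60), 22 to 24 and 1 to 2 for the difference (0.35 to 0.46), and 0 to 2 and 8 to 12 in null (−0.09 to −0.05). For CTGF against JTE it gave 9 (without JTE library 1) to 18 and 0 (without JTE library 3) to 2 (0.11 to 0.24). Null had 0 higher without wt library 2 and 2 without wt library 1, and JTE had 2 lower without control library 1. Deviations of same-numbered libraries correlated at −0.15 to 0.32. The highest were those of control with JTE, at 0.21 for number 2 and 0.32 for number 3, while number 1 stood at −0.06. Whether these libraries shared an origin was not tested. With the replicate block the counts were 22 and 3 for JTE and 15 and 2 for CTGF against JTE. The other counts were as without it. DESeq2 and the block each ended 4 single-gene calls, and no call changed sign in either. The depth leaves Tfeb, the gene with the fewest reads, with the widest errors.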
